A study of Arabidopsis thaliana with 222 samples.

Results

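The 10 genes described here encode alpha and beta tubulin in Arabidopsis thaliana: the alpha genes TUA1 (AT1G64740), TUA2 (AT1G50010), TUA3 (AT5G19770), TUA4 (AT1G04820), TUA5 (AT5G19780) and TUA6 (AT4G14960), and the beta genes TUB1 (AT1G75780), TUB4 (AT5G44340), TUB6 (AT5G12250) and TUB8 (AT5G23860). They were taken by gene ID from the 32311 genes of a count matrix of root RNA-seq, and all 10 were among the 21635 genes with enough counts to be tested. TUA3 was chosen by its fold changes in the wild type, where it was higher with each bacterial strain, and the other members were listed with it, so its wild-type values are given as a description with no test. The 5 other beta genes, TUB2, TUB3, TUB5, TUB7 and TUB9, stand beside them for comparison.

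The matrix held 222 libraries in 37 groups of 6. Seedlings grew axenically on agar for a week and were then moved for another week to plates with 1 bacterial strain or with no bacteria (NB), and each library pooled at least 10 roots. Mutants in the Col-0 background were arf7 arf19, with insertions in both auxin response factors ARF7 and ARF19 (L344 and NB), gnom184, an allele of GNOM, a regulator of auxin transporter trafficking (RMF27, L196, L339, L469 and NB), lbd16-1, an insertion in the lateral root gene LBD16 (L76, L180, L343, L359, L384, L412, RMF8, RMF217 and NB), and nph4-1, an insertion in ARF7 (L344, L359, RCL115 and NB). The wild type Col-0 received the same 14 strains, L264 and RMF331, 16 in all, and NB. According to its methods, the experiment was done in a pair of runs with 3 replicates each, but no label ties a library to its run, so p-values measure the spread between these libraries.

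Microtubules are hollow polymers of alpha-beta tubulin dimers that form the spindle and phragmoplast of dividing plant cells and the cortical arrays that guide cellulose deposition in growing ones. In roots, changes in tubulin bend the direction of cell growth: missense alleles of TUA4 and TUA6 are known as the lefty mutants, whose organs twist. TUB1 is known as a predominantly root beta tubulin, TUA1 as a predominantly pollen alpha tubulin, and tagged TUA5, TUA6 and TUB6 are used to image microtubules.

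Library totals ran from 10255732 to 29735838 counts (median 18434824), and a member's count in a library was never below 164. Levels are counts scaled to library size (CPM) after TMM normalisation, a factor per library that was between 0.920 and 1.082. ARF7 was at 28.57 to 32.74 CPM in the 12 arf7 arf19 libraries and at 47.75 to 61.5 CPM in nph4-1, against 58.74 to 112.9 CPM in Col-0, and ARF19 was at 7.446 to 11.75 CPM in arf7 arf19, against 26.08 to 68.19 CPM in Col-0. LBD16 was at 1.957 to 4.737 CPM in lbd16-1, against 3.595 to 10.82 CPM in Col-0, and GNOM at 70.89 to 117.7 CPM in gnom184, against 71.49 to 128.9 CPM in Col-0, so the GNOM level did not check the gnom184 label. The 6 root markers (PYK10, SCR, SHR, CASP1, PIN2 and SMB) were expressed in every group and summed to 8905 to 31430 CPM. Most of this sum was PYK10, at a mean of 10040 CPM in gnom184 with RMF27. The others were at 16.12 (SMB) to 137.5 CPM (PIN2) there. Of the pollen markers VGD1 and PPME1 neither had enough counts to be tested.

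Which copies can be told apart by their reads is set by sequence, shown here for the gene pair that holds TUA3. In the RefSeq annotation of TAIR10.1, TUA3 (chr5:6682420-6684744, minus strand) and TUA5 (chr5:6687030-6689171, plus strand) are neighbours that point away from each other, 2285 bases apart. They encode identical proteins of 450 residues and differ at 29 of 1353 coding positions. Their first 90 coding bases, from the start codon on, hold 9 of these differences, in capitals:
TUA3: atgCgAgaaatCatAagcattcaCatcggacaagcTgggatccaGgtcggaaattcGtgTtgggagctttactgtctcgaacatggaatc
TUA5: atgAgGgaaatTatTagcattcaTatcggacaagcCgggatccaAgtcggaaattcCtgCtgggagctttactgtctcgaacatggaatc
Of all 31-base words of the TUA3 transcript, 57.8% occurred in no other tubulin gene, and for TUA5 the share was 53.4%. TUA2 and TUA4 likewise encode 1 protein, with 96.6% identical coding bases, and so do TUB2 and TUB3. Counts within these pairs were estimated by the authors from shared reads and are uncertain in how they are split. Of the 31-base words of TUA6, whose protein is not identical to theirs, 20.3% occurred in TUA4 and 8.2% in TUA2. The split of its counts is therefore uncertain too. TUA1 was the alpha gene with no 31-base word in common with another tubulin gene, and TUB1, TUB4, TUB6 and TUB8 each had at least 96.6% of such words to themselves.

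The 250 bases before each gene start were searched on both strands for motifs of auxin and ethylene response factors and of growth genes. None of the 10 members held the auxin response element TGTCTC (10.9% of 27443 protein-coding genes did) or the GCC box GCCGCC (1.87%), and TUA3 alone held the telo box AAACCCTA (4.49%). The G box CACGTG, held by 6.49% of genes, occurred in TUA2 and TUA6, inside a stretch that both genes share at 57 of 63 positions, with the motif in capitals (TUA2 chr1:18517484-18517546, plus strand; TUA6 chr4:8550496-8550558, minus strand):
TUA2: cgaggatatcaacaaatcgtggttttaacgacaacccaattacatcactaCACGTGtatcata
TUA6: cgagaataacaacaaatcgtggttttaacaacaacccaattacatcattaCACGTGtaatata
The G box lies 46 bases before the TUA2 start and 7 bases before the TUA6 start.

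Per kilobase of coding sequence, the alpha genes TUA6, TUA4 and TUA2 led in axenic Col-0 roots, with levels of 462.4 ± 53.9, 413.7 ± 21.1 and 321.9 ± 13.4 CPM per kb (SD, n = 6). TUB4 followed at 311.7 ± 21.5 CPM per kb, within the spread of TUA2, and TUB3 (255.5 ± 14.8) and TUB2 (227.3 ± 11.6) came next. TUA5, TUA3 and TUB6 formed a middle class of 173.5 ± 8.45, 164.0 ± 9.27 and 158.1 ± 10.2 CPM per kb whose spreads overlapped. TUB7 was at 128.7 ± 7.99 CPM per kb, and TUB9 (79.93 ± 4.76), TUB8 (75.11 ± 5.85), TUB5 (68.71 ± 17.2) and TUB1 (66.31 ± 8.12) were not separated from their neighbours by more than their SD. TUA1, at 15.63 ± 1.94 CPM per kb, was the lowest of the 15. The 6 alpha genes summed to 1551 ± 75.2 CPM per kb and the 9 beta genes to 1371 ± 68.9, a ratio of 1.131 ± 0.0112.

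TUA3 varied little in size across the 37 groups. Its group mean was lowest in gnom184 NB (202.1 CPM) and highest in Col-0 with RMF8 (288.4 CPM), a ratio of 1.43. In Col-0, the RMF8 libraries held 270.5, 284.4 and 315.9 CPM (lowest, median and highest), against 200.8, 226.0 and 233.9 CPM in NB, a log2 fold change of 0.38. The smallest Col-0 difference was that of L196, whose libraries held 220.9, 245.5 and 284.3 CPM, a log2 fold change of 0.17. With 12 of the 16 strains every inoculated Col-0 library lay above every NB library, and with L196, L344, L412 and RMF217 the ranges overlapped. With RMF27, 10.8% of all genes tested had every library above NB, and this share was not counted for the other strains. The Col-0 differences are what chose TUA3, and all 16 rest on the same 6 NB libraries.

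**Figure D1:**
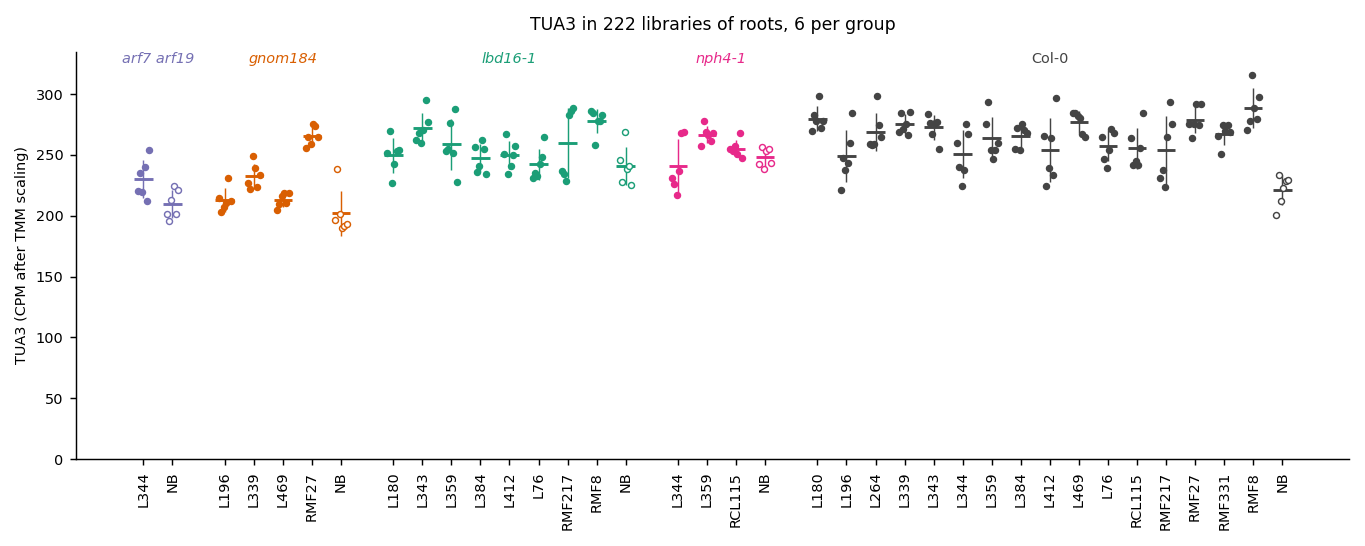
TUA3 level in CPM after TMM scaling (y axis) in each of the 222 libraries (points), by group (x axis), with the mean of each group of 6 as a bar. Col-0 with RMF8 has the highest mean (288.4 CPM) and gnom184 NB the lowest (202.1 CPM), where 1 library at 238.7 CPM stands above the other 5.

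The mutants give TUA3 contrasts that its choice did not use. Against NB of the same mutant, TUA3 passed the test (edgeR quasi-likelihood test, Benjamini-Hochberg adjusted p under 0.05) as higher in 5 of 16 contrasts and as lower in none, while over all genes tested 12.9% of the mutant tests were called higher and 10.8% lower. Of all genes tested, 15.3% were called higher in at least 5 of these contrasts. Its log2 fold change ran from -0.04 (nph4-1 with L344) to 0.40 (gnom184 with RMF27), with a median of 0.09. In bulk roots, more cells of a type that is rich in tubulin mRNA and more of that mRNA per cell cannot be told apart. No decrease had an unadjusted p under 0.05 either, and DESeq2 also called 5 increases and no decrease.

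The largest TUA3 increase among the mutants was that of gnom184 with RMF27. These libraries held 255.9, 264.6 and 275.5 CPM, against 190.2, 195.3 and 238.7 CPM in gnom184 NB. All 6 inoculated libraries lay above all 6 NB libraries, also above library 170, the NB library that stood apart at 238.7 CPM. The log2 fold change was 0.40 ± 0.05 (SE, n = 6 per group, edgeR adjusted p = 3.7e-12).

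With L339, TUA3 in gnom184 was at 221.9, 230.2 and 249.4 CPM, and the 1 NB library at 238.7 CPM lay within that range (log2 fold change 0.20 ± 0.05, edgeR adjusted p = 8.0e-04). In lbd16-1, TUA3 was at 258.6, 280.6 and 286.3 CPM with RMF8 and at 259.7, 269.2 and 295.0 CPM with L343, against 225.3, 239.8 and 268.6 CPM in NB. Both passed the edgeR test with overlapping ranges, RMF8 at a log2 fold change of 0.20 ± 0.05 (adjusted p = 6.7e-04) and L343 at 0.17 ± 0.05 (adjusted p = 0.00503). When the counts of TUA3 and TUA5 were summed, the L343 difference was no longer called (edgeR adjusted p = 0.0572).

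In arf7 arf19 with L344, TUA3 was at 212.2, 227.8 and 254.4 CPM, against 195.8, 207.5 and 224.2 CPM in NB. The increase of 0.14 ± 0.05 (edgeR adjusted p = 0.0282) was lost in 5 of the 12 fits that each left out 1 library a group. Each of the 12 left out 1 library of every NB group, or of every strain group, at once, so the part of a single library was not tested. The 5 were the fits without NB library 172, 173 or 62 (edgeR adjusted p = 0.0609, 0.0795 and 0.0673), without L344 library 88 (0.111) and without the L344 library whose title leaves its number open (0.162). The number of a gnom184 library with L196 is open in the same way, and without both the adjusted p was 0.185. It was also lost with TUA3 and TUA5 summed (edgeR adjusted p = 0.45). In nph4-1, TUA3 with L359 lay at 257.1, 267.6 and 277.9 CPM, above all NB libraries at 238.4, 248.3 and 256.8 CPM, yet the edgeR test did not pass over all genes (log2 fold change 0.10 ± 0.05, adjusted p = 0.188).

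The whole set moved most in gnom184 with RMF27: 8 of the 10 members were higher, TUA1 was lower and TUB6 did not pass, with a median log2 fold change of 0.38 against 0.03 over all genes tested. In this contrast 32.7% of all genes tested were called higher and 28.8% lower. The same 8 members had every inoculated library above every NB library, and TUA1 had every one below. Over all genes tested, 17.7% had such libraries above and 16.0% below.

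TUB1, the root beta tubulin, changed most of all members. It was at 161.3, 171.7 and 190.7 CPM with RMF27, against 56.12, 63.44 and 86.09 CPM in gnom184 NB, so the lowest inoculated library was well above the highest NB library. The log2 fold change was 1.40 ± 0.09 (edgeR adjusted p = 8.4e-35), and TUB1 made up 7.00% of the summed beta level per kb with RMF27, against 3.64% in NB.

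Among the abundant alpha genes, TUA2 rose most. Its libraries held 644.4, 689.1 and 755.9 CPM with RMF27, against 419.2, 428.2 and 457.5 CPM in gnom184 NB (log2 fold change 0.67 ± 0.05, edgeR adjusted p = 3.2e-27). TUA4, which encodes the same protein, was at 816.4, 861.0 and 972.0 CPM, against 567.4, 581.1 and 618.9 CPM (log2 fold change 0.56 ± 0.05, edgeR adjusted p = 2.4e-19). TUA2 took 23.44% of the summed alpha level with RMF27, against 20.55% in NB, and none of the libraries overlapped in that share.

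TUA6, TUA5, TUB4 and TUB8 rose by log2 fold changes of 0.37, 0.35, 0.47 and 0.35 in the same contrast. TUB4, the most abundant beta gene, held 472.0, 509.2 and 549.0 CPM with RMF27, against 353.0, 362.9 and 400.7 CPM in gnom184 NB (edgeR adjusted p = 5.5e-18). TUA1 went the other way, at 12.24, 14.00 and 15.64 CPM with RMF27, against 21.81, 23.21 and 25.54 CPM in gnom184 NB (log2 fold change -0.74 ± 0.07, edgeR adjusted p = 1.6e-19). TUB6 was alike in both groups, with 241.1, 253.6 and 271.7 CPM with RMF27 and 234.5, 257.4 and 280.3 CPM in gnom184 NB (log2 fold change 0.00).

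Summed per kb, the alpha genes reached 2179 ± 102 CPM per kb with RMF27, against 1558 ± 40.9 in gnom184 NB, and the beta genes 1850 ± 77.7, against 1355 ± 35.2 (SD, n = 6). The ratio of the alpha to the beta sum was 1.178 ± 0.0215 with RMF27 and 1.150 ± 0.0188 in gnom184 NB, which overlapped. In Col-0 the same strain gave 1875 ± 64.7 CPM per kb of alpha, against 1551 ± 75.2 in NB, and 1665 ± 60.9 of beta, against 1371 ± 68.9.

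**Figure D2:**
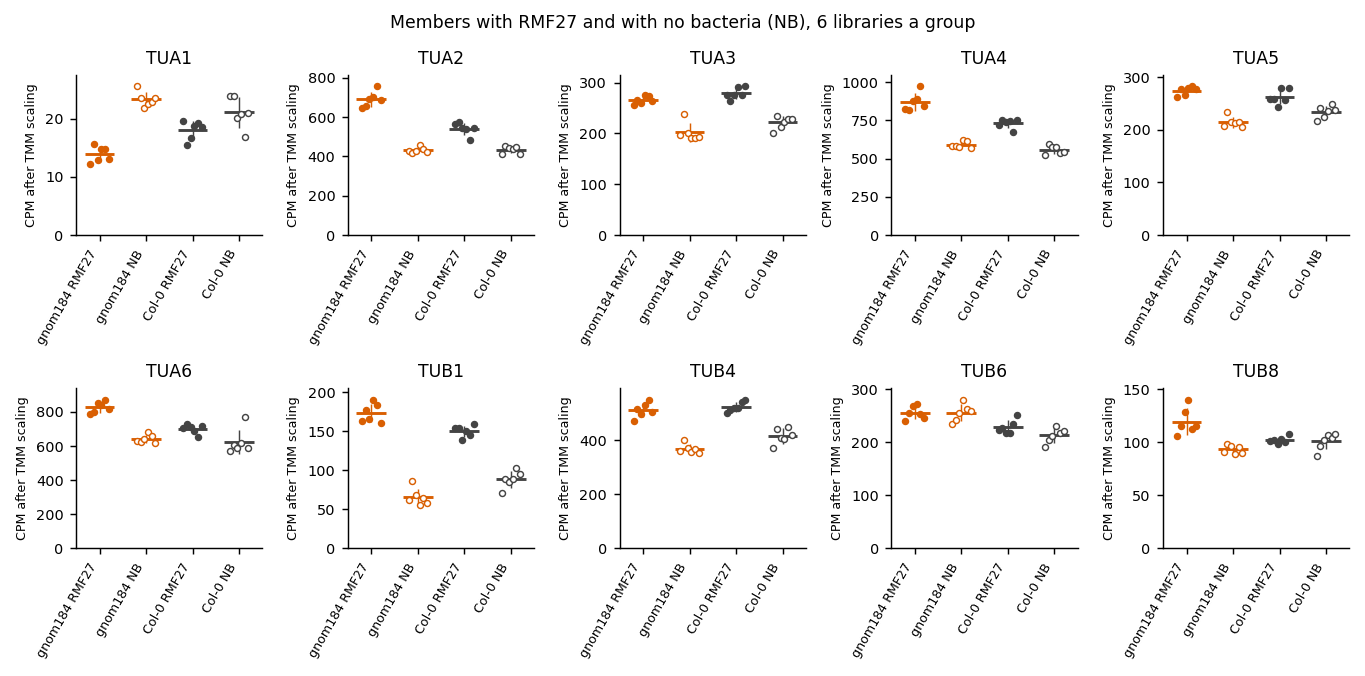
Level of each member in CPM after TMM scaling (y axes, from 0) in gnom184 and Col-0 roots with RMF27 and with NB (x axes). Points are the 6 libraries of a group and bars their means. TUB1 shows the widest gap, 173.7 against 66.03 CPM in gnom184, TUA1 falls and TUB6 stays level.

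Markers of other cell types moved with this contrast. The 7 root hair markers summed to 892.2 to 1643 CPM in gnom184 with RMF27, against 104.2 to 296.3 CPM in NB, and all 7 passed the test as higher with a median log2 fold change of 2.84. Of the NB libraries, library 170 had the highest root hair sum (296.3 CPM) as well as the highest TUA3. The 7 mitosis markers summed to 143.1 to 193.6 CPM with RMF27, against 114.1 to 161.1 CPM in NB, with 5 higher and none lower. All 3 xylem secondary wall markers, CESA4, CESA7 and CESA8, were lower, summing to 90.66 to 156.4 CPM with RMF27, against 162.2 to 203.4 CPM in NB. The 5 leaf markers summed to 140.8 to 2854 CPM with RMF27, against 372.8 to 1362 CPM in NB, and none of them passed the edgeR test. Of the root markers, SMB, PIN2, SCR and CASP1 were higher, at log2 fold changes of 2.37, 0.98, 0.63 and 0.40. PYK10 was lower (-1.14), and SHR did not pass (-0.03). The part of these changes in the tubulin levels was not tested.

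The other gnom184 strains followed with smaller changes. With L339, 8 members were higher and TUA1 was lower (18.9% and 14.9% of all genes tested), with a median log2 fold change of 0.20 against 0.01 over all genes. TUB1 was again first at 90.69, 99.87 and 112.5 CPM, above the NB range of 56.12 to 86.09 CPM (log2 fold change 0.60 ± 0.09, edgeR adjusted p = 4.8e-09). TUA1 with L339 held 15.5, 18.06 and 19.54 CPM, below the NB range of 21.81 to 25.54 CPM (log2 fold change -0.39 ± 0.07, edgeR adjusted p = 2.0e-06). Root hair markers summed to 263.3 to 509.4 CPM with L339 and mitosis markers to 146.1 to 178.5 CPM, next to the gnom184 NB ranges above.

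With L196, 6 members were higher in gnom184 (18.7% of all genes tested were), TUA1 and TUB6 were lower (17.3%), and TUA3 was among those that did not pass, at 0.08. TUA2 led the alpha genes at a log2 fold change of 0.26 and TUB1 the beta genes at 0.34. The calls of TUA5 and TUA6 were lost in 5 and 6 of the 12 fits that left out 1 library a group. With L469, only TUB1 was higher (0.26; 15.9% of all genes tested) and only TUA1 was lower (-0.27; 12.5%). The TUB1 call with L469 was lost in such fits without NB library 58 (edgeR adjusted p = 0.0827) or 60 (0.0605). TUA1 was below NB in every library with all 4 strains. With RMF27, 16.0% of all genes tested lay below NB in every library, and this share was not counted for the other strains. The 4 gnom184 contrasts share 1 set of 6 NB libraries.

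In lbd16-1, tubulin calls came mostly from L343, with 6 members higher and none lower (13.1% of all genes tested were called higher). TUA2, TUA3, TUA4, TUA6, TUB4 and TUB8 had log2 fold changes from 0.12 (TUB4) to 0.18 (TUB8), and all ranges overlapped with NB. Of the 12 fits that left out 1 library a group, that without NB library 57 lost the TUA6 call (edgeR adjusted p = 0.0762). That without L343 library 183 lost the TUB8 call (edgeR adjusted p = 0.0529). The calls of TUA4 and TUB4 were lost in 7 and 8 of the 12. RMF8 gave 2 calls, TUA3 and TUB4 (15.0% of all genes tested were called higher), L359 gave TUB8 (9.04%), and L180 gave TUA1 as lower (10.6%), at 17.09 to 19.42 CPM against 20.39 to 22.31 CPM in NB. Of these, TUB4 with RMF8 was lost in 7 of 12 such fits and TUB8 with L359 in 6. No member passed with L76, L384, L412 or RMF217 by edgeR, where 20.7%, 21.2%, 12.9% and 4.85% of all genes tested did. At an unadjusted p under 0.05, TUA1 with L76 was lower and TUA3 with RMF217 higher, and DESeq2 called 0 members in these 4 contrasts.

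Root hair markers moved in lbd16-1 as well. With L343 they summed to 563.3 to 836 CPM and with RMF8 to 656.8 to 904.6 CPM, against 213.2 to 428.2 CPM in NB, without overlap, and 6 of 7 were called higher with each. With L76, where no member passed, the sum was 369.9 to 685.7 CPM, which overlapped with NB, and 5 of 7 were higher. The sums with the other 5 strains overlapped with NB too, and 0 to 3 markers were higher. Mitosis markers summed to 112.5 to 130.1 CPM with L343, against 110.4 to 137 CPM in NB, and none was called. The part of these markers in the tubulin levels was not tested.

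The strain L344 was given to both mutants with an insertion in ARF7. In arf7 arf19, TUB1 held 78.15, 88.91 and 112.5 CPM, against 59.98, 67.39 and 79.08 CPM in NB (log2 fold change 0.44 ± 0.09, edgeR adjusted p = 1.0e-05), TUB4 and TUA3 also passed as higher (19.6% of all genes tested did), and TUA1 was lower (14.8%). The TUB4 call was lost in 4 of the 12 fits that left out 1 library a group. In nph4-1, TUB1 was lower, at 70.15, 83.23 and 97.96 CPM with L344, against 92.61, 105.9 and 117.9 CPM in NB (log2 fold change -0.34 ± 0.09, edgeR adjusted p = 0.00122). TUA5 and TUA6 were lower there as well, at log2 fold changes of -0.13 and -0.15, and no member was higher, while 11.8% of all genes tested were called higher and 11.2% lower. The TUA5 call was lost in 4 of 12 such fits. Next to these contrasts, root hair markers summed to 165.7 to 287.4 CPM in arf7 arf19 with L344, against 167.7 to 234.6 CPM in NB, and to 228.5 to 419.9 CPM in nph4-1, against 249.9 to 346.8 CPM. Mitosis markers in arf7 arf19 summed to 76.43 to 85.19 CPM with L344, against 100.5 to 141.0 CPM in NB, without overlap. With L359, 7.68% of all genes tested were called higher in nph4-1 and with RCL115 0.00924%, and no member passed with either by edgeR. The single unadjusted p under 0.05 there was that of TUA3 with L359, and DESeq2 called 0.

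**Figure D3:**
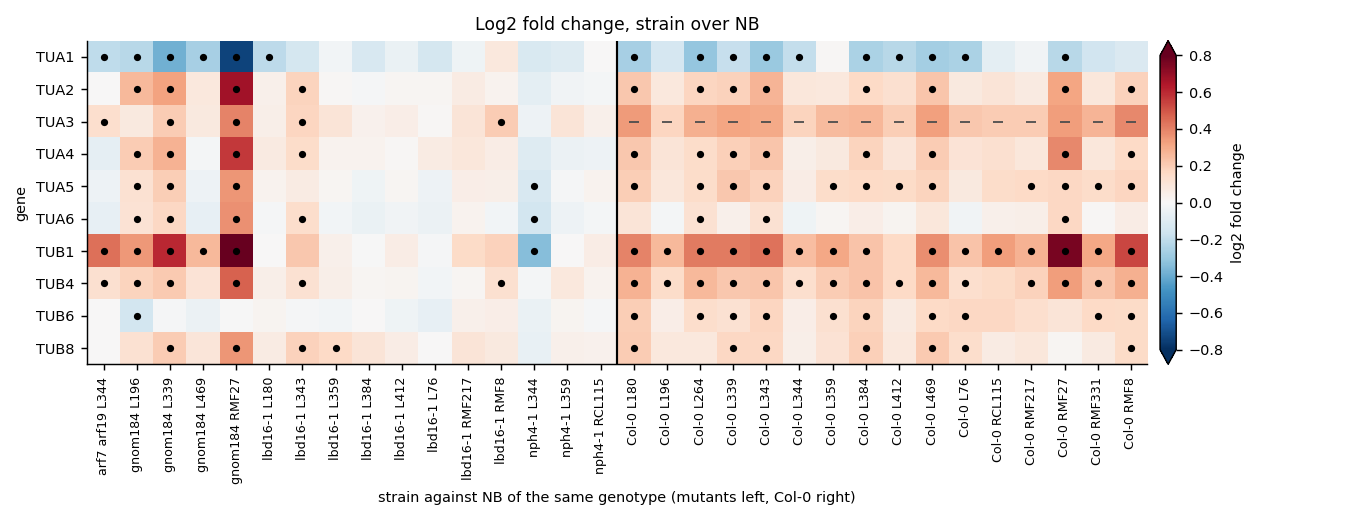
Log2 fold change of each member (rows) in each strain against NB of the same genotype (columns, mutants left and Col-0 right), as colour, red for higher and blue for lower with the strain, with full colour from 0.8 on. Dots mark differences that passed the test and dashes those not tested. TUB1 in gnom184 with RMF27 is the strongest at 1.40, and TUA1 is blue in most columns.

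In Col-0, the other 9 members had 144 tests with 78 calls higher and 10 lower, where all genes tested had 12.6% and 12.8%. Nothing is read from this count, since the members were listed with Col-0 results known and all 16 contrasts use the same 6 NB libraries. TUB1 and TUB4 were each called higher with 15 of 16 strains, TUA5 with 12, TUB6 with 10, TUA2 and TUA4 with 8, TUB8 with 7 and TUA6 with 3. TUA1 was never called higher and was called lower with 10 strains. For TUB1 the Col-0 libraries held 139.0, 152.1 and 159.1 CPM with RMF27, against 71.06, 89.12 and 103.4 CPM in NB, the largest Col-0 log2 fold change of these genes at 0.76 ± 0.09. Root hair markers in Col-0 summed to 1072 to 1591 CPM with RMF27, against 183.4 to 306.5 CPM in NB.

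Over all 16 mutant contrasts the 10 members had 35 calls higher and 10 lower among 160 tests, next to the 12.9% and 10.8% of all genes tested. By gene, TUB4 was called higher in 6 contrasts, TUB1 in 5, TUA2, TUA4, TUA6 and TUB8 in 4 each and TUA5 in 3, while TUA1 and TUB6 were never called higher. TUA1 was called lower in 6 contrasts, and in each of these 6 its inoculated libraries all lay below NB. Of all genes tested, 16.0% had such libraries in gnom184 with RMF27, and this share was not counted for the other contrasts. Of all genes tested, 12.5% were called higher in at least 6, 15.3% in at least 5, 19.1% in at least 4 and 27.2% in at least 3. Called lower in at least 6 were 10.2%. Of the 45 calls, all had the same sign within the low and the high range of library numbers in the titles. This is a description, since the same libraries gave the calls. The 16 contrasts share 4 sets of NB libraries, and the counts include TUA3.

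For the 9 members other than TUA3, an interaction tested the difference between a mutant's and the wild type's response to 1 strain. Of 144 tests, 5 were called higher and 7 lower, against 2.94% and 2.46% of all genes tested. Of these 12 calls, 6 were for gnom184 with RMF27: TUA2 (0.36 ± 0.07, edgeR adjusted p = 3.9e-05), TUB1 (0.64 ± 0.12, 1.5e-05), TUB8 (0.34 ± 0.08, 4.7e-04), TUA5 (0.19 ± 0.07, 0.0248) and TUA6 (0.20 ± 0.06, 0.00929) responded more in gnom184, and TUA1 (-0.52 ± 0.10, 1.4e-05) fell further. In this interaction 11.8% of all genes tested were called higher and 11.1% lower. The TUA5 difference lost its call in 6 of 12 fits that left out 1 library a group. The TUA6 difference was 0.13 (edgeR adjusted p = 0.108) in the fit without gnom184 NB library 59, Col-0 NB library 2 and 1 library of each other NB group. Library 2 held TUA6 at 769.5 CPM, while the other Col-0 NB libraries held 571.5 to 615.2 CPM.

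TUB8 illustrates this difference. It was at 105.6, 115.2 and 140.2 CPM in gnom184 with RMF27, against 89.11, 93.16 and 98.82 CPM in gnom184 NB, with no overlap. In Col-0 it was at 98.47, 102.2 and 108.2 CPM with RMF27, against 87.35, 103.5 and 108.3 CPM in NB, with full overlap. With L344, the TUB1 response was lower in nph4-1 than in Col-0 (difference of log2 fold changes -0.59 ± 0.12, edgeR adjusted p = 7.3e-04). All interactions use the 6 Col-0 NB libraries, so they are not independent of each other.

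Without bacteria, TUB6 was the member called higher in all 4 mutants against Col-0. It was at 252.6, 282.4 and 298.6 CPM in arf7 arf19 and at 234.5, 257.4 and 280.3 CPM in gnom184, against 192.0, 214.6 and 231.3 CPM in Col-0. All libraries of these mutants lay above all Col-0 libraries (log2 fold changes 0.39 ± 0.05 and 0.26 ± 0.05, edgeR adjusted p = 3.3e-13 and 1.0e-06). It was also higher in nph4-1 (0.27 ± 0.05, edgeR adjusted p = 6.1e-06) and in lbd16-1 (0.17 ± 0.05, 0.0146), the last of which was lost in 3 of 12 fits with 1 library a group left out. Over all genes tested, 20.8% were called higher in arf7 arf19, 14.5% in gnom184, 6.07% in nph4-1 and 2.45% in lbd16-1. The 4 contrasts share the Col-0 NB libraries, whose TUB6 mean of 213.0 CPM was the lowest of all 37 groups. Within Col-0, TUB6 was called higher than in these NB libraries with 10 of 16 strains. Over all genes tested, 12.6% of the Col-0 tests were called higher, and the share of genes with at least 10 such calls was not counted.

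The other members differed between the mutants. In axenic arf7 arf19, TUA1 and TUB6 were higher and TUA2, TUA4, TUA5, TUA6, TUB1 and TUB4 lower, 8 of 9 members, in a contrast in which 46.5% of all genes tested were called. TUA2 was at 341.4, 370.7 and 405.3 CPM in arf7 arf19, against 410.4, 442.2 and 453.5 CPM in Col-0, without overlap (log2 fold change -0.23 ± 0.05, edgeR adjusted p = 4.6e-05). The TUA1 call was lost without arf7 arf19 NB library 62 and Col-0 NB library 2 (edgeR adjusted p = 0.08), and that of TUA6 likewise (0.163). Xylem secondary wall markers summed to 230.5 to 277.5 CPM in arf7 arf19 NB, against 133.3 to 204.6 CPM in Col-0 NB, without overlap, and root hair markers to 167.7 to 234.6 CPM, against 183.4 to 306.5 CPM. In 12 such fits the TUA4 call was lost in 7 and that of TUA5 in 9.

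In axenic gnom184, TUB1 was at 56.12, 63.44 and 86.09 CPM, against 71.06, 89.12 and 103.4 CPM in Col-0 (log2 fold change -0.43 ± 0.09, edgeR adjusted p = 2.5e-05). TUB4 and TUA5 had log2 fold changes of -0.17 and -0.12, of which TUA5 lost its call in 4 of 12 fits that left out 1 library a group. With TUB6 these were 4 of 9 members, where 32.0% of all genes tested were called. Root hair markers summed to 104.2, 143.3 and 296.3 CPM in gnom184 NB, against 183.4, 256.7 and 306.5 CPM in Col-0 NB, and their part in the TUB1 difference was not tested. In nph4-1, TUB1, TUA5 and TUB6 were higher (13.1% of all genes tested were called), with TUB1 and TUA5 lost in 4 of 12 such fits each, and in lbd16-1 TUB6 alone passed (6.61%). TUA3 was not tested here because the Col-0 NB libraries entered its choice. Its log2 fold changes were -0.08 in arf7 arf19, -0.13 in gnom184, 0.12 in lbd16-1 and 0.17 in nph4-1. That all 6 nph4-1 libraries lay above Col-0 is a description that rests on these same NB libraries.

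**Figure D4:**
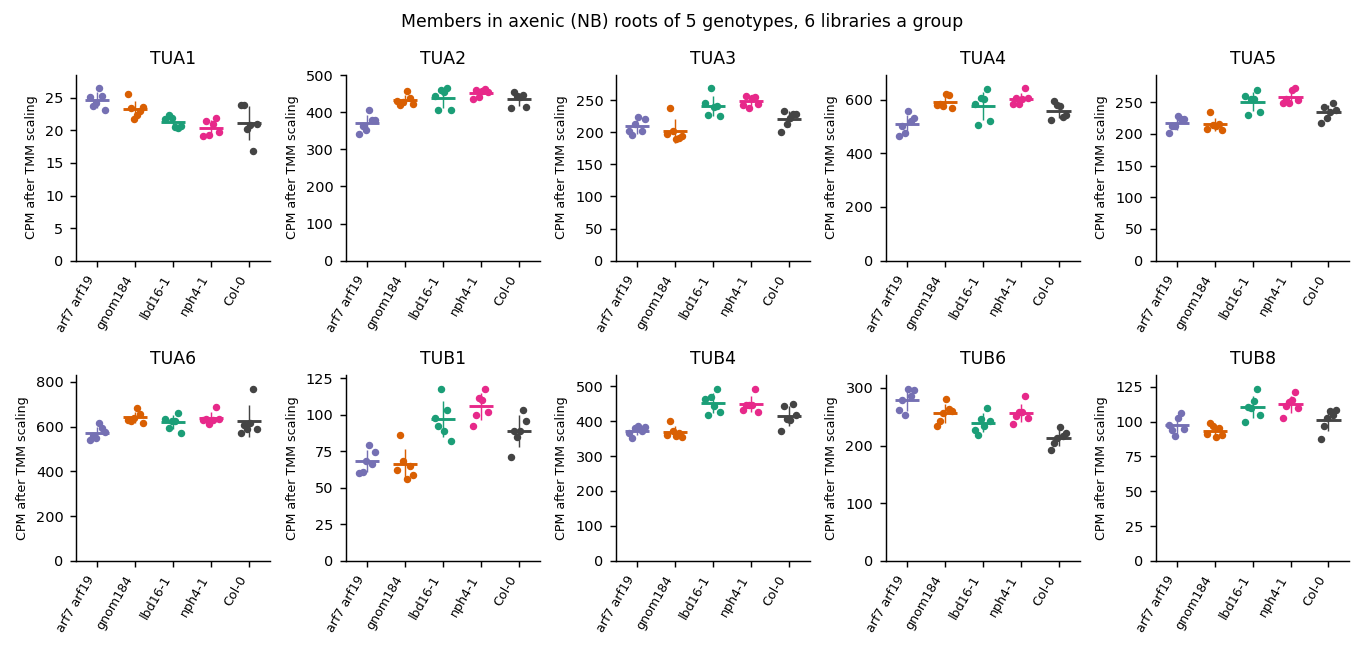
Level of each member in CPM after TMM scaling (y axes, from 0) in roots without bacteria of the 4 mutants and of Col-0 (x axes). Points are the 6 libraries of a group and bars their means. TUB6 is lowest in Col-0 at 213.0 CPM and highest in arf7 arf19 at 279.1 CPM.

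Across the 37 group means of log2 CPM, the members fell into patterns. TUA3 followed TUB4 most closely (Pearson r = 0.960, Spearman rho = 0.936, and r = 0.944 without the 2 groups farthest from the median), and then its neighbour TUA5 (r = 0.877) and TUB1 (r = 0.843). TUA2, TUA4 and TUA6 moved together (r = 0.971 for TUA2 with TUA4 and 0.947 for TUA2 with TUA6), also with TUB3 (r = 0.973 with TUA4). TUA3 and TUA2 were less alike (r = 0.444), and TUA1 ran against TUA2 (r = -0.797, and -0.620 without the 2 farthest groups). These are descriptions over 37 points that share strains, genotypes and, for identical proteins and for TUA6 with TUA2 and TUA4, reads. The 37 include the Col-0 groups that chose TUA3. Its likeness to genes that rose with most strains there is not independent of that choice.

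**Figure D5:**
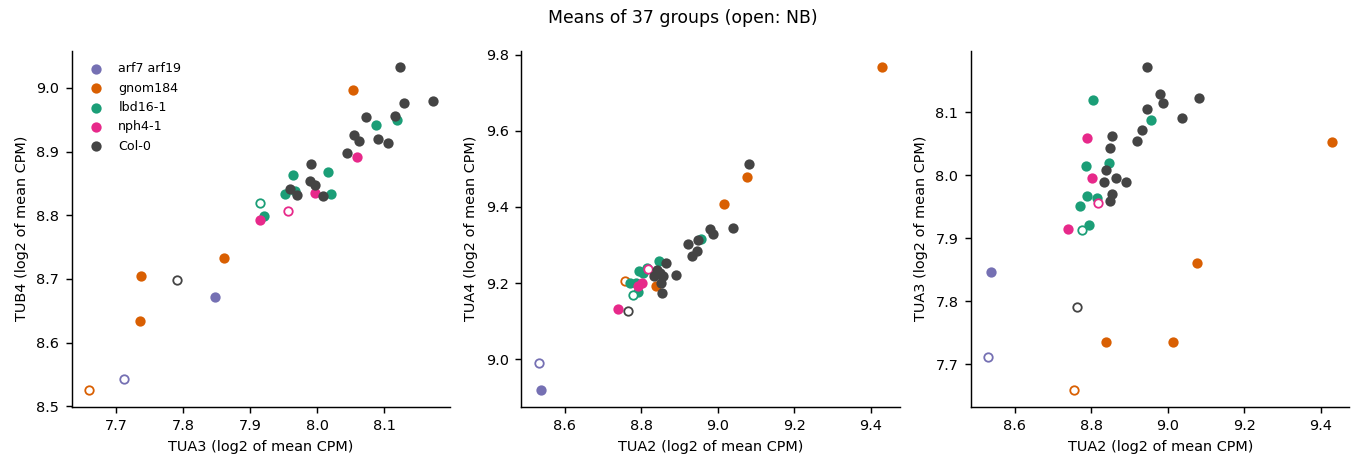
Group means of member pairs, as log2 of the mean CPM (both axes), 1 point for each of the 37 groups, coloured by genotype with NB groups open. TUA3 and TUB4 lie along 1 line (r = 0.960), while TUA3 and TUA2 are loosely related (r = 0.444).

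Outside the tubulin family, the tested genes most like TUA3 over the same 37 groups were PLAT2 (AT2G22170, r = 0.930), which encodes a PLAT domain protein, AT3G08600 (0.929), ACT2 (0.925), a main actin of vegetative organs, IQD2 (AT5G03040, 0.920), of a family of calmodulin-binding proteins, and AT3G18170 (0.919). The summed level of the 7 root hair markers had r = 0.849 with TUB1, 0.827 with TUB4, 0.735 with TUA3, 0.727 with TUA2, 0.696 with TUA4, 0.653 with TUA5, 0.589 with TUA6, 0.448 with TUB8, -0.331 with TUB6 and -0.645 with TUA1 over the 37 groups. The groups share the strains and include the Col-0 groups that chose TUA3, so its relations are not independent of that choice. Which of these relations hold within a cell type was not tested.

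Of the other beta genes, TUB5 was called higher in 8 mutant contrasts (8.17% of all genes tested were in at least 8) and never lower, with a median log2 fold change of 0.24. In lbd16-1 with L180, TUB5 held 110.5, 121.4 and 128.5 CPM, against 80.68, 93.39 and 110.4 CPM in NB, a contrast in which no member was higher. TUB2 and TUB3 were called higher in 3 contrasts each, all in gnom184 (27.2% of all genes tested were in at least 3). TUB7 was called higher in 2 and lower in 2, and in arf7 arf19 with L344 its libraries all lay below NB (log2 fold change -0.40 ± 0.06, edgeR adjusted p = 3.2e-10). TUB9, known mainly from pollen, was called higher in 2 and lower in 1. Of all genes tested, 37.3% were called higher and 30.8% lower in at least 2, and 47.7% lower in at least 1. The share with all libraries below NB was not counted for arf7 arf19 with L344.

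Genes that fold, nucleate or bind tubulin were counted over the same 16 mutant contrasts. The 21 genes for tubulin folding (cofactors, prefoldin and the CCT chaperonin) had 46 calls higher and 2 lower in 336 tests, and the 16 genes for microtubule-associated proteins 35 higher and 8 lower in 256. The 8 genes for gamma-tubulin complexes and the related TON proteins had 6 calls higher and 3 lower in 128, next to the 12.9% and 10.8% over all genes tested. TUBG1, a gamma tubulin, was never called higher and was called lower once (47.7% of all genes tested were lower in at least 1).

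In gnom184 with RMF27, 18 of the 21 folding genes were higher and 1 was lower (median log2 fold change 0.31, against 0.03 over all genes tested, of which 32.7% were called higher and 28.8% lower). TFCB, a cofactor for alpha tubulin, was at a mean of 31.29 CPM with RMF27, against 22.64 CPM in gnom184 NB (log2 fold change 0.47, edgeR adjusted p = 4.2e-13). Over the 16 mutant contrasts it had 7 calls higher and none lower (10.2% of all genes tested had at least 7 higher). TFCA, a cofactor for beta tubulin, PFD4, a prefoldin subunit, and CCT5, a chaperonin subunit, had log2 fold changes of 0.43, 0.50 and 0.30 in this contrast. In Col-0 with RMF27 the same genes had 0.13 (TFCB), 0.21 (TFCA), 0.13 (PFD4) and 0.13 (CCT5), and TFCA alone of them passed the edgeR test (adjusted p = 0.0224).

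Of the microtubule-associated proteins, 10 of 16 were higher in gnom184 with RMF27 and none was lower (median log2 fold change 0.28), next to the 32.7% and 28.8% of all genes tested. EB1B, which tracks growing microtubule ends, was at a mean of 19.15 CPM with RMF27, against 11.76 CPM in gnom184 NB (log2 fold change 0.70, edgeR adjusted p = 7.1e-19). WVD2 was called higher in 9 of the 16 mutant contrasts (6.68% of all genes tested were in at least 9) and reached a log2 fold change of 1.299 in arf7 arf19 with L344. Its level was low, at a mean of 1.615 CPM in gnom184 with RMF27, against 1.152 CPM in gnom184 NB. EB1C, a nuclear relative of EB1B, was called higher in 2 and lower in 2. Of all genes tested, 37.3% were called higher and 30.8% lower in at least 2. Root hair and mitosis markers differed in the same contrasts, with the sums given above, and their part in these lists was not tested.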

How the data were processed

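RNA was measured in 222 root libraries of 37 groups. Per the methods and processing notes, reads were trimmed by fastp 0.20.1 and assigned to genes by Salmon 1.6.0, and the authors deposited a matrix of expected counts per gene, which were rounded to whole numbers here. The genome build of their annotation is not given in the sources used here, so positions are those of the RefSeq annotation of TAIR10.1. The members and gene lists were chosen with earlier results of these data known, and all 10 members are named.

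Counts were fitted with edgeR 4.0.16 in R 4.3.3 (limma 3.58.1): TMM factors, filterByExpr, which kept 21635 of 32311 genes, 1 quasi-likelihood model (robust) of 37 groups, and Benjamini-Hochberg adjustment over all genes tested within a contrast, called at adjusted p under 0.05. Groups came from the labels. The 52 contrasts were 16 strains against NB in Col-0 and 16 in the mutants, 16 interactions and 4 mutants against Col-0 without bacteria. The fit was tested on simulated data. Further genes are named by their number of calls, at most 4 a list, or by their correlation with TUA3.

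Alternatives were DESeq2 1.42.0, other scalings, filters, thresholds and prior counts, fits on the groups of a contrast alone, a term for the range of library numbers (up to 111, or from 112), genes of identical proteins summed, libraries left out and, chosen after seeing the data, a fit without the NB libraries 2, 53 and 170. Total counts per library were 10255732 to 29735838. Pairs of libraries of a group differed by more than sampling noise in all 555 pairs, and each library was counted on its own. This spread cannot show whether the libraries came from separate RNA samples.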

Additional observations from a re-analysis of the deposited data

Results flagged for a closer look

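In 7 of 100 groups looked at, 1 library of 6 stood apart from the other 5 by Dixon's criterion, which chance does in about 1 of 20. TUA3 was at 250.9 CPM in library 137 of Col-0 with RMF331 (others 265.8 to 274.6), at 238.7 CPM in library 170 of gnom184 NB (others 190.2 to 201.3) and at 258.6 CPM in library 189 of lbd16-1 with RMF8 (others 277.9 to 286.3). Library 170 also stood apart in TUA5, at 234.1 CPM (others 205.5 to 215.4). TUA6 was at 769.5 CPM in library 2 of Col-0 NB (others 571.5 to 615.2) and at 687.5 CPM in library 53 of nph4-1 NB (others 612.7 to 634.7). Library 53 held TUB4 at 490.6 CPM as well (others 425.4 to 447.2).

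The response to a strain differed between mutant and Col-0 in 12 of 144 tests, given here as the difference of log2 fold changes with the edgeR adjusted p. Over all genes tested, 2.94% of the interaction tests were called higher and 2.46% lower, and for gnom184 with RMF27 11.8% and 11.1%. For gnom184 with RMF27 these were TUA1 (-0.518, 1.4e-05), TUA2 (0.356, 3.9e-05), TUA5 (0.186, 0.0248), TUA6 (0.201, 0.00929), TUB1 (0.638, 1.5e-05) and TUB8 (0.336, 4.7e-04). The TUB1 response was lower in nph4-1 with L344 (-0.585, 7.3e-04) and in lbd16-1 with L180 (-0.395, 0.0475), where that of TUB4 was lower too (-0.235, 0.0289). TUB6 responded less in gnom184 with L196 (-0.197, 0.0483) and in lbd16-1 with L76 (-0.236, 0.0446), and TUA5 less in gnom184 with L469 (-0.220, 0.047). When libraries were left out 1 a group, TUA5 with L469 lost its call in 10 of 12 fits, TUB6 in 9 and 7, TUB1 and TUB4 with L180 in 8 and 6, TUA5 with RMF27 in 6 and TUA6 with RMF27 in 3, while TUA1, TUA2, TUB1 and TUB8 with RMF27 and TUB1 with L344 lost theirs in none.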

How the results depend on the processing

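No alternative run turned the sign of any of the 73 single calls outside the Col-0 contrasts. Counts dropped most when a log2 fold change of at least 0.5 was asked as well: TUA3 then had 0 calls higher in the mutants and the members 4 higher and 1 lower, the 9 members in Col-0 2 higher and 0 lower, the interactions 3 and the axenic contrasts 0. At adjusted p under 0.01 there were 51 calls higher in Col-0, 6 interactions and 9 axenic calls. Fitted on the groups of a contrast alone, Col-0 had 34 calls higher and 4 lower, with 5 interactions and 7 axenic calls. With genes of identical proteins summed, TUA3 (with TUA5) was called higher 3 times. Leaving out 1 library a group in 12 fits gave 4 to 5 TUA3 calls higher and 0 to 0 lower, 27 to 34 member calls higher and 9 to 11 lower in the mutants, 53 to 78 higher and 7 to 13 lower in Col-0, 5 to 13 interactions and 9 to 16 axenic calls. Of the 73, 46 were kept in all 12 such fits and 60 under the 3 other scalings. Fitted on the groups of a contrast alone, 49 of the 73 were kept, and at adjusted p under 0.01, 48. In every setting, with the limit of 0.5 on the log2 fold change among them, 8 were kept. Without the 2 libraries whose titles leave their number open (1 of arf7 arf19 L344 and 1 of gnom184 L196), 63 were kept and 10 lost, 7 of them in contrasts that use neither library. That fit and 11 of the 12 that left out 1 library a group took another library as the reference of the TMM scaling, and the median log2 fold change over all genes tested in a contrast moved by up to 0.031 in the first and 0.045 in the 12, and the share of the lost calls that goes with each change was not tested. Without library 2 of Col-0 NB, 53 of nph4-1 NB and 170 of gnom184 NB, a choice made after seeing the data, the members had 36 calls higher and 10 lower in the mutants, 13 interactions and 12 axenic calls, and TUA3 6 higher. Library totals alone moved the median log2 fold change of all genes tested in gnom184 with RMF27 to 0.13, against 0.03 with TMM. The cause of these shifts was not tested. No paired analysis was possible because the labels carry no replicate number that groups share. With the range of library numbers (up to 111, or from 112) as a term, all 73 calls were kept.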

Other observations

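The list for actin, the other main polymer of the plant cytoskeleton, split by gene over the 16 mutant contrasts. ACT8 was called higher in 10 and never lower, ACT2 higher in 6 and never lower, and ACT7, which was never called higher, was lower in 12. Of all genes tested, 5.45% were called higher in at least 10 of these contrasts, 12.5% in at least 6, and 2.74% lower in at least 12. In gnom184 with RMF27, ACT2 was at a mean of 1143 CPM, against 808.0 CPM in NB (log2 fold change 0.50, edgeR adjusted p = 3.4e-14), and ACT7 at 618.8 CPM, against 668.6 CPM in NB (log2 fold change -0.11, edgeR adjusted p = 0.00412). ACT11 rose more there, with a mean of 58.10 CPM, against 31.74 CPM in NB (log2 fold change 0.88, edgeR adjusted p = 9.6e-21).

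Genes for cellulose synthesis in primary walls, which cortical microtubules guide, had 15 calls higher and 1 lower in 128 mutant tests, next to 12.9% and 10.8% over all genes tested. In Col-0 the same 8 genes had 71 calls higher and none lower in 128 tests that share 6 NB libraries, next to 12.6% and 12.8%. In gnom184 with RMF27, where 32.7% of all genes tested were called higher and 28.8% lower, 5 of the 8 were higher and none lower, with CESA1 at a mean of 618.5 CPM, against 528.5 CPM in NB (log2 fold change 0.23, edgeR adjusted p = 0.00814). Root hair markers passed most often of the lists counted, with 59 of 112 mutant tests higher and 1 lower, led by EXPA7 and EXPA18, called higher in 12 contrasts each, as 3.13% of all genes tested were in at least 12.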
